A study of Homo sapiens with 8 samples.

Results

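The SWI/SNF complexes of mammalian cells use the energy of ATP to slide and evict nucleosomes, and so open promoters and enhancers to transcription factors. The canonical complexes are built around an ATPase, SMARCA4 or SMARCA2, with a core that holds SMARCC1, SMARCC2, SMARCB1 and SMARCE1. In the BAF form ARID1A or ARID1B is added, and in the PBAF form ARID2 and PBRM1. Several of these genes are mutated in human cancers, and in mice SMARCA4 is needed for the development of B cells. The transcripts of these 10 subunits are described here, with every probe set annotated to them, whatever its signal. They were chosen by name and are 10 of the 19775 genes that had a probe set with 1 gene symbol. The rule used no measured value, but the genes were chosen with earlier results of these data known.

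Expression was measured on HG-U133 Plus 2.0 arrays, on which a probe set reads a transcript through short oligonucleotides near its 3′ end. The study asked how myeloma cells respond to Zalypsis, a marine-derived compound that binds DNA. OPM1 and MM1S are established human cell lines labelled as myeloma, the malignancy of plasma cells, and neither carries an added allele in the labels. There were 4 groups of 2 arrays: OPM1 with Zalypsis at 5 nM, OPM1 control, MM1S with Zalypsis at 5 nM, and MM1S control. Treated cells were collected once 15 to 20% of them stained as dying. Neither the length of treatment nor what the controls received is stated in the labels. Whether the 2 arrays of a group stem from separate cultures is not stated, and the p-values therefore describe array-to-array spread that may be technical only. In bulk RNA of this kind, fewer cells of a type and less RNA per cell cannot be told apart.

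The median signal of the 8 arrays lay between 23 and 24.8. The 75th percentile was 77.5 and 78.7 on the OPM1 Zalypsis arrays, against 101 to 108 on the OPM1 control arrays, and 104 to 115 on the MM1S arrays. OPM1 control 1 had a 3′ to 5′ signal ratio of 2.26 for GAPDH, while the other arrays had 0.963 to 1.06. Poly-A controls, which are bacterial transcripts added before labelling, had a geometric mean of 1948 and 1479 on the OPM1 Zalypsis arrays, 349 and 541 on the OPM1 controls and 22.7 to 30.6 on the MM1S arrays. The part of these differences in the results below was not tested, and results were also computed without each array and with other scalings.

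Most plasma cell markers were low on the OPM1 arrays. Summed over 9 plasma cell markers, the signal was 5364 and 6004 on the OPM1 control arrays, against 37374 and 35156 on the MM1S control arrays. Of these 9, 8 were lower in untreated OPM1, and SDC1, which encodes the plasma cell antigen CD138, had signals of 6.56 and 12.9 there, against 3443 and 2946 in untreated MM1S. The ninth, CD38, was higher in untreated OPM1, with 400.1 and 578 against 61.1 and 47.3 in untreated MM1S (log2 2.58). Over the 8 B cell markers with a value, the sum was 11327 and 13037 on the OPM1 controls, against 316 and 247 on the MM1S controls, and all 8 were higher in untreated OPM1. With Zalypsis the B cell sum was 5911 and 4876 on the OPM1 arrays. None of these markers was at exactly 0. The 4 T cell markers summed to 43.1 to 121 and the 4 monocyte and macrophage markers to 43.4 to 170.3 over all arrays. OPM1 below means the cells so labelled, and the part of these lineage differences in the results was not tested.

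With Zalypsis, 8 of the 10 SWI/SNF transcripts fell in OPM1 and 7 fell in MM1S, while SMARCC2 was called in neither line and SMARCE1 rose slightly in OPM1. Genes were called at an adjusted p under 0.05 in limma, over 11865 tested genes. All 10 subunits were bright enough to be tested. Of all tested genes, 38.5% fell and 25.4% rose in OPM1, and 21.1% fell and 16.4% rose in MM1S. On the log2(signal + 32) scale used throughout, which understates the change of dim genes, the median change of the 10 was -1.76 in OPM1 and -1.08 in MM1S, beside -0.07 and 0.02 for all tested genes. As the mean of a gene's probe sets, the median of the 10 was -0.93 in OPM1 and -0.63 in MM1S on this scale. The study's design text counts changes over 2-fold, which in signal is a change of less than 1 on this scale. By mean signal alone 8 of the 10 were over 2-fold lower in OPM1, as were 26.7% of all tested genes, and 6 of the 10 in MM1S, as were 9.90%. Apart from ARID1A in MM1S and the small rise of SMARCE1 in OPM1, the calls in these 2 comparisons kept their side of the threshold without any single array.

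**Figure D1:**
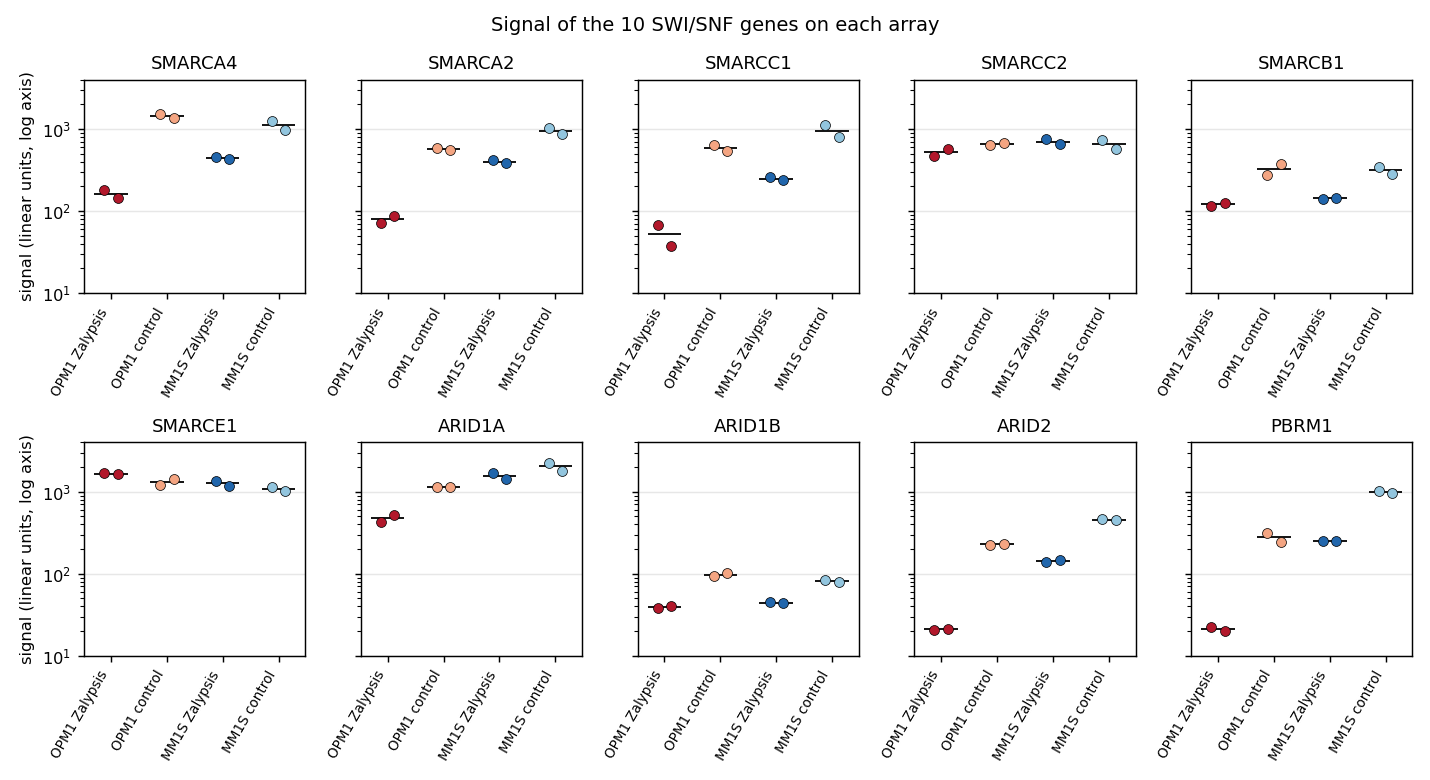
Signal of the brightest probe set of each of the 10 genes on every array (linear units, log axis). Points are single arrays and black bars the means of 2 arrays. In both lines the Zalypsis points of 7 genes lie well below their controls, ARID1A does so in OPM1, and SMARCC2 and SMARCE1 stay near theirs.

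By their brightest probe sets both ATPases, the motor subunits of the complexes, fell in both lines, and further in OPM1. SMARCA4 had signals of 180.5 and 142 on the OPM1 Zalypsis arrays, against 1520.3 and 1383 on the OPM1 controls. In MM1S it had 458 and 437 with Zalypsis, against 1268 and 979.8 in controls. The treated arrays of each line lay far below their controls without overlap, and the OPM1 Zalypsis arrays were the lowest of all. That left 11.1% of the control mean in OPM1 and 39.8% in MM1S. The log2 change was -2.94 ± 0.16 in OPM1 (SE, adjusted p = 6.3e-13) and -1.26 ± 0.16 in MM1S (adjusted p = 1.8e-06).

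SMARCA2, the alternative ATPase, had signals of 70.8 and 87.3 on the OPM1 Zalypsis arrays, against 589 and 564 on the OPM1 controls. In MM1S they were 422 and 381 with Zalypsis, against 1028 and 883 in controls. Here too no treated array reached a control of its line. SMARCA2 was left at 13.7% of the control mean in OPM1 (log2 -2.46 ± 0.15, adjusted p = 3.4e-12) and at 42.0% in MM1S (log2 -1.19 ± 0.15, adjusted p = 1.4e-06). By these brightest sets the shares left of the paralogs lay close together within a line. Over all tested sets the median log2 change in OPM1 was -1.28 for SMARCA2 and -2.75 for SMARCA4. In MM1S these medians were -1.19 and -1.26. The sequences of the paralogs are alike, the brightest SMARCA2 probe set is of the kind that can bind other transcripts, and the part of cross-binding in these values was not tested.

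The genes with the most similar profile over the 8 arrays were DROSHA (Pearson r of log2 signals 0.999), PMS1 (0.998) and GALNT2 (0.997) for SMARCA4, and GLCCI1 (0.999), SRPK2 (0.998) and AARS1 (0.998) for SMARCA2. DROSHA, the nuclear nuclease of microRNA processing, had signals of 67.2 and 57.8 on the OPM1 Zalypsis arrays and 729.9 and 680.0 on the OPM1 controls. It had 207 and 204 on the MM1S Zalypsis arrays and 546 and 469 on the MM1S controls. These correlations describe 8 arrays that share their 4 groups, and were the highest of 11865 genes.

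The 250 bases before the most upstream annotated start are shown for 3 of the genes, both ATPases, which fell together, and SMARCE1, which did not fall. They come from RefSeq on GRCh38.p14, SMARCA4 at chr19:10960780-10961029 on the plus strand, SMARCA2 at chr9:2015097-2015346 on the plus strand and SMARCE1 at chr17:40647819-40648068 on the minus strand, each read 5′ to 3′ along its gene. Capitals mark the GC box GGGCGG on either strand.
SMARCA4: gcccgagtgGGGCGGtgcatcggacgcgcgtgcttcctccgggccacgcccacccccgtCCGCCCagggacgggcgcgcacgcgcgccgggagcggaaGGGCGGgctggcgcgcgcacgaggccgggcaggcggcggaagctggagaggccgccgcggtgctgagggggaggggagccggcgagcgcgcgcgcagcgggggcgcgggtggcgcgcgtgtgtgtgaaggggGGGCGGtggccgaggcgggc
SMARCA2: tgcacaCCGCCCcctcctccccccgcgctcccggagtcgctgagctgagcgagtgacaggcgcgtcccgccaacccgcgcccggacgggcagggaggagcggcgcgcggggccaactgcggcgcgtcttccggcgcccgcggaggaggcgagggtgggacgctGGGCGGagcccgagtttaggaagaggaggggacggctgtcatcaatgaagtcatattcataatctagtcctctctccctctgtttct
SMARCE1: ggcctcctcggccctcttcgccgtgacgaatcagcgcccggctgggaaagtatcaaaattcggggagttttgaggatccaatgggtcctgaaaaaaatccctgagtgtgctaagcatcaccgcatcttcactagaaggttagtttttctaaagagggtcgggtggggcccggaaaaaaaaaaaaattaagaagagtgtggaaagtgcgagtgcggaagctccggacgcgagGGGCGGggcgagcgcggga
SMARCA4 has 4 GC boxes there, SMARCA2 has 2 and SMARCE1 has 1. The window is 82.4% G and C in SMARCA4, 68.8% in SMARCA2 and 54.4% in SMARCE1, beside a median of 58% over 35116 promoters. ARID1A has 3 GC boxes and 80.4% G and C. PBRM1, SMARCB1 and ARID1B, which fell in both lines, have 0 GC boxes and 63.6, 58 and 38.8% G and C. Of the 10 genes, 7 were in the table. A GC box was in 4 of these 7 windows and in 42.6% of all promoters, CCAAT on either strand in 4 of 7 and in 32.01%, and the E-box CACGTG in 1 of 7, PBRM1, and in 6.35%. No 2 of these motifs overlapped in the 7 windows. A match is a run of letters and not a bound site, and the arrays do not measure binding.

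The core subunits split. SMARCC1, a scaffold protein of the core also known as BAF155, fell steeply, its paralog SMARCC2 (BAF170) was not called in either line, and SMARCB1, the small core subunit that binds the nucleosome, fell by similar amounts in both. SMARCC1 had signals of 66.7 and 37.0 on the OPM1 Zalypsis arrays, against 642 and 541 on the OPM1 controls. With Zalypsis MM1S had 260.25 and 239, against 1109.9 and 809 in its controls. Treated and control arrays were far apart in each line, although the OPM1 Zalypsis pair also differed from each other. SMARCC1 changed by -2.91 ± 0.18 on the log2 scale in OPM1 (8.77% of control, adjusted p = 3.4e-12) and -1.80 ± 0.18 in MM1S (26.0% of control, adjusted p = 3.6e-08).

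SMARCC2 had signals of 474 and 575 on the OPM1 Zalypsis arrays, against 632 and 668 on the OPM1 controls. In MM1S it had 756.5 and 655 with Zalypsis, against 745 and 579.9 in controls. The MM1S groups overlapped, and in OPM1 both treated arrays were slightly below both controls. Its log2 change was -0.30 ± 0.16 in OPM1 (adjusted p = 0.113) and 0.09 ± 0.16 in MM1S (adjusted p = 0.694).

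SMARCB1 had signals of 116 and 125 on the OPM1 Zalypsis arrays, against 278 and 371 on the OPM1 controls. MM1S gave 140.1 and 145 with Zalypsis, against 348 and 282 in controls. All 4 treated arrays lay below all 4 controls. SMARCB1 was left at 37.1% of control in OPM1 (log2 -1.21 ± 0.15, adjusted p = 2.5e-07) and at 45.3% in MM1S (log2 -0.98 ± 0.15, adjusted p = 1.5e-05).

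SMARCE1, the subunit with a DNA-binding HMG domain also known as BAF57, was the only one of the 10 that rose by the test. It had signals of 1695 and 1632 on the OPM1 Zalypsis arrays, against 1197 and 1425 on the OPM1 controls. MM1S arrays had 1347 and 1187 with Zalypsis, against 1131 and 1017 in controls. The treated arrays were above the controls of their line without overlap, but in each line the nearest treated and control arrays were closer to each other than its control arrays were. The log2 change was 0.34 ± 0.15 in OPM1 (adjusted p = 0.0450) and 0.23 ± 0.15 in MM1S (adjusted p = 0.230). The OPM1 call was lost without OPM1 control 1, the array with the raised 3′ to 5′ ratio (log2 0.22, adjusted p = 0.287), without either OPM1 Zalypsis array (adjusted p = 0.185 and 0.118) and without either MM1S Zalypsis array (0.0624 and 0.0621). It was also lost with the hybridisation scaling (adjusted p = 0.353) and with no filter on dim genes (0.0555). The change turned to -1.43 with the poly-A scaling and to -0.22 as the mean of the gene's probe sets.

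Of the subunits that define BAF, ARID1A fell in OPM1 and ARID1B fell in both lines. In MM1S ARID1A was not called by its brightest probe set, but 2 of its 4 tested sets fell there. That brightest set is, like the one of SMARCA2, of the kind that can bind other transcripts. The part of cross-binding in its values was not tested. The response was called lower in OPM1 than in MM1S for 3 of the 4 sets, and 1 was not called. ARID1A, which guides BAF to DNA and is often mutated in cancer, had signals of 431 and 519 on the OPM1 Zalypsis arrays, against 1149 and 1141 on the OPM1 controls. In MM1S it had 1697 and 1444 with Zalypsis, against 2253 and 1817 in controls. The OPM1 groups were far apart, and in MM1S the higher treated array came close to the lower control. On the log2 scale its change was -1.22 ± 0.15 in OPM1 (41.5% of control, adjusted p = 4.1e-07) and -0.36 ± 0.15 in MM1S (77.2% of control, adjusted p = 0.0704). Without MM1S control 2 the MM1S fall was called (log2 -0.52, adjusted p = 0.0273), as it was with quantile normalization (adjusted p = 0.0156) and with the hybridisation scaling (log2 -0.70, adjusted p = 6.5e-03), and a pair of other probe sets, given with the probe sets, were called there too.

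ARID1B, the alternative to ARID1A, was dim by its brightest probe set. Signals were 38.3 and 41.0 on the OPM1 Zalypsis arrays, against 92.7 and 101 on the OPM1 controls. They were 44.9 and 43.45 on the MM1S Zalypsis arrays, against 84.2 and 80.4 on the MM1S controls. The treated arrays of both lines were at about the same level and below every control. On the log2 scale ARID1B changed by -0.85 ± 0.12 in OPM1 (adjusted p = 2.5e-06) and -0.59 ± 0.12 in MM1S (adjusted p = 5.8e-04).

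Both subunits that define PBAF fell in both lines. ARID2, its ARID protein, had signals of 20.8 and 21.2 on the OPM1 Zalypsis arrays, against 225 and 233 on the OPM1 controls. In MM1S these were 139.5 and 149 with Zalypsis, against 463 and 449.6 in controls. The OPM1 Zalypsis values were below the median signal of those arrays and below the floor of 27.3 for the mean signal of a tested gene. No detection calls were used here, so a group mean under that floor is taken at the floor and the fold given as a bound. ARID2 was at least 8.41-fold lower in OPM1 (fitted log2 -2.30 ± 0.12 between the deposited signals, adjusted p = 5.2e-13). The log2 change was -1.47 ± 0.12 in MM1S (31.6% of control, adjusted p = 3.6e-09).

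PBRM1, which carries several bromodomains that bind acetylated histones, had signals of 22.3 and 20.2 on the OPM1 Zalypsis arrays, against 311 and 246 on the OPM1 controls. MM1S had 248 and 253 with Zalypsis, against 1017 and 972 in controls. The treated MM1S arrays were thus within the range of the untreated OPM1 arrays, and the treated OPM1 arrays were again below the array median and the floor. PBRM1 was at least 10.2-fold lower in OPM1 (fitted log2 -2.54 ± 0.14, adjusted p = 7.2e-13). The log2 change was -1.86 ± 0.14 in MM1S (25.2% of control, adjusted p = 5.9e-10).

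**Figure D2:**
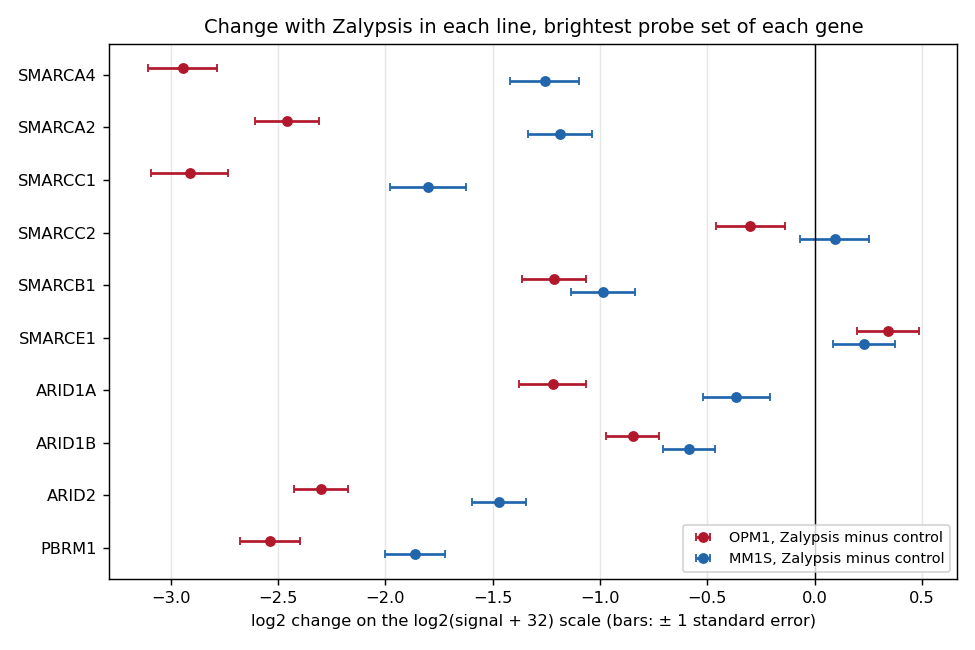
Log2 change with Zalypsis of the brightest probe set of each gene in OPM1 and in MM1S, with bars of 1 standard error. In OPM1 the change runs from -2.94 for SMARCA4 to 0.34 for SMARCE1, and in MM1S from -1.86 for PBRM1 to 0.23 for SMARCE1.

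The response of 6 of the 10 genes differed between the lines, each with the larger fall in OPM1. A lower response in OPM1 was called for 31.2% of all tested genes and a higher one for 15.3%. The difference, OPM1 minus MM1S, was -1.69 ± 0.23 for SMARCA4 (adjusted p = 3.6e-06), -1.27 ± 0.21 for SMARCA2 (adjusted p = 4.2e-05) and -1.11 ± 0.25 for SMARCC1 (adjusted p = 9.6e-04). It was -0.86 ± 0.22 for ARID1A (adjusted p = 2.7e-03), -0.83 ± 0.18 for ARID2 (adjusted p = 5.3e-04) and -0.68 ± 0.20 for PBRM1 (adjusted p = 7.8e-03). For SMARCC2 (-0.39, adjusted p = 0.170), ARID1B (-0.26, adjusted p = 0.228), SMARCB1 (-0.23, adjusted p = 0.399) and SMARCE1 (0.11, adjusted p = 0.693) it was not called, which does not show that the lines responded alike. The median difference was -0.75 for the 10 genes and -0.13 for all tested genes. The PBRM1 difference was not called without OPM1 control 1 (-0.52, adjusted p = 0.0511), and the ARID2 and PBRM1 differences rest on treated OPM1 values under the floor, where the scale is compressed. With scaling by the hybridisation controls only SMARCA4, SMARCA2 and SMARCC1 were still called, and with the poly-A scaling the differences of ARID2 and PBRM1 turned to 0.18 and 0.32, and that of SMARCC1 was -0.52 (adjusted p = 0.241). As the mean of a gene's probe sets, the differences of SMARCA2 (-0.33, adjusted p = 0.0531) and SMARCC1 (-0.37, adjusted p = 0.0957) were not called, and that of PBRM1 turned to 0.038. Probe set by probe set, 16 of 44 had a lower response in OPM1, 2 a higher one and 26 were not called, where 26.1% and 12.5% of all tested probe sets were called lower and higher. Of the 5 tested SMARCA2 sets 2 were called lower and 3 were not called, with a median difference of -0.09. Of the SMARCC1 sets only the brightest of 4 was called. The PBRM1 set 223400_s_at, also under the floor in treated OPM1, went the other way (0.59, adjusted p = 0.0286).

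Before treatment, 5 of the 10 genes were lower in OPM1 than in MM1S and 0 were higher by the test. Of all tested genes, 35.2% were lower and 28.6% higher in untreated OPM1. PBRM1 stood furthest apart, at 28.0% of the MM1S mean (log2 -1.73 ± 0.14, adjusted p = 4.4e-10), followed by ARID2 at 50.2% (log2 -0.90 ± 0.12, adjusted p = 1.7e-06) and ARID1A at 56.3% (log2 -0.80 ± 0.15, adjusted p = 1.1e-04). SMARCA2 was at 60.3% (log2 -0.69 ± 0.15, adjusted p = 3.7e-04) and SMARCC1 at 61.6% (log2 -0.66 ± 0.18, adjusted p = 2.8e-03). This order is of the brightest sets and depends on that choice. Over all tested sets the log2 values ran from -1.42 to -0.31 for SMARCA2 and from -1.32 to -0.27 for ARID1A. For ARID2 they ran from -0.90 to 0.82. The SMARCC1 call was lost without MM1S control 1 (log2 -0.44, adjusted p = 0.0680). SMARCA4 leaned the other way, at 129.2% of MM1S, and just missed the threshold (log2 0.37 ± 0.16, adjusted p = 0.0510), which it passed without MM1S control 1 (log2 0.55, adjusted p = 0.0115). Those SMARCA4 values are of its brightest probe set. Of the 7 tested SMARCA4 sets 0 were called higher in untreated OPM1, 1 was called lower (log2 -0.59) and 6 were not called. With the poly-A scaling all 10 genes were lower in untreated OPM1, and SMARCA4 stood at -3.72. The remaining genes, ARID1B, SMARCC2, SMARCB1 and SMARCE1, had changes of 0.17, -0.02, 0.03 and 0.28 and were not called, though SMARCE1 was without OPM1 control 1 (log2 0.40, adjusted p = 0.0445). Of the 44 tested probe sets 22 were lower and 2 higher in untreated OPM1, where 31.4% and 25.4% of all tested probe sets were. The ARID2 set 231090_s_at was one of the higher ones (log2 0.82, adjusted p = 1.7e-03), with 350.7 and 213 on the OPM1 controls against 125 and 159.9 on the MM1S controls, opposite to the other 3 sets of the gene. 

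The 10 genes had 51 probe sets, of which 44 were bright enough to be tested on their own among 24654 probe sets. In OPM1 32 of the 44 fell and 4 rose, and in MM1S 28 fell and 2 rose. Of all tested probe sets, 35.9% fell and 22.0% rose in OPM1, and 19.5% fell and 12.6% rose in MM1S. All 4 tested sets of ARID2 and all 4 of SMARCC1 fell in both lines, from -0.71 to -2.30 and from -0.92 to -2.91 in OPM1. SMARCA4 had 6 of 7 sets that fell in both lines, the seventh being dim and not called, and PBRM1 had 4 of 5. Probe sets of a gene share their arrays and often parts of the transcript, so they are not separate evidence.

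**Figure D3:**
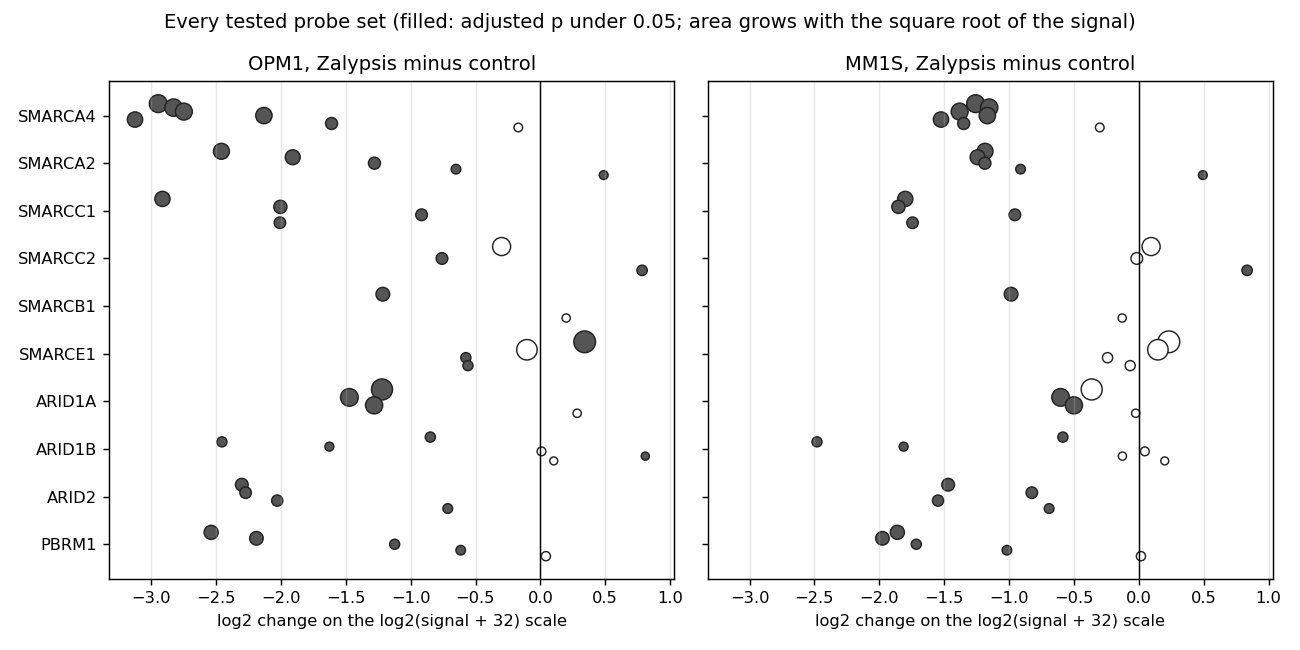
Log2 change with Zalypsis of each of the 44 tested probe sets of the 10 genes, in OPM1 and in MM1S. Filled points passed the test over all probe sets, and larger points are brighter sets. ARID2, SMARCC1 and SMARCA4 lie wholly below 0. In OPM1 every other gene holds sets on both sides of 0, and in MM1S every other gene but ARID1A and SMARCB1.

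In 4 genes called probe sets went opposite ways. The SMARCA2 set 212258_s_at rose by 0.49 in each line, while its other 4 tested sets fell. It was dim, with signals of 47.2 and 34.2 on the OPM1 Zalypsis arrays, against 22.3 and 17.1 on the OPM1 controls. For ARID1B the choice of set changed the size of the fall. The set 225181_at had signals of 7.42 and 11.1 on the OPM1 Zalypsis arrays, against 234.7 and 159 on the OPM1 controls. In MM1S it had 2.02 and 7.74 with Zalypsis, against 164 and 183 in controls. Its treated signals were below the floor in both lines, so it was at least 7.23-fold lower in OPM1 and 6.36-fold lower in MM1S (fitted log2 -2.45 and -2.48). Another such set, 238043_at, was at least 3.49-fold lower in OPM1 and 3.46-fold lower in MM1S. The set that stands for the gene above, 225184_at, fell least of these 3. A dim set, 1566989_at, rose by 0.81 in OPM1.

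The SMARCC2 sets split as well. In OPM1 201320_at fell by 0.76, and 1561973_at rose by 0.78 there and by 0.83 in MM1S. The rising set had signals of 93.4 and 75.1 on the OPM1 Zalypsis arrays and 37.9 and 32.9 on the OPM1 controls. Of the SMARCE1 sets, 229511_at and 236016_at fell by 0.57 and 0.56 in OPM1, opposite to the brightest, and the other bright set was not called. For ARID1A, 210649_s_at and 218917_s_at fell in MM1S as well (log2 -0.60 and -0.50), unlike the brightest set. Which transcript forms these sets read was not analysed here.

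The 10 genes are long. Their annotated length on GRCh38.p14 had a median of 121 kb, against 28.3 kb over 11855 tested genes, and 6 of the 10 are over 100 kb. Over all tested genes, the median change grew more negative with length up to 200 kb. It was 0.24 in OPM1 and 0.16 in MM1S for genes under 10 kb, and -1.27 and -0.66 for genes of 100 to 200 kb. Above 200 kb it was -0.67 in OPM1 and -0.81 in MM1S. The short members SMARCE1 (22.9 kb) and SMARCC2 (27.1 kb) were those not called lower in either line by the brightest set. SMARCA4 (101 kb), PBRM1 (141 kb), SMARCA2 and ARID2 (both 178 kb) and SMARCC1 (197 kb) were those that fell most in OPM1, all below the median of their length class in each line. SMARCB1 (51.0 kb) and ARID1A (86.1 kb) lay between in both length and, in OPM1, in change.

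ARID1B is the longest member, at 435 kb, and fell least of the 8 in OPM1 by its brightest set. Over the 10 genes the Pearson r of length with change was -0.23 in OPM1 and -0.30 in MM1S, with Spearman rho of -0.49 and -0.62. With the ARID1B set 225181_at in place of the brightest, r was -0.61 and -0.84, with rho of -0.67 and -0.89. With the other 9 genes alone r was -0.86 and -0.84, with rho of -0.77 and -0.85. Swapping the set or leaving out ARID1B was chosen with its values known. These r and rho are therefore no separate evidence, and the treated signals of 225181_at were under the floor. Over all 11855 genes r was -0.30 in OPM1 and -0.44 in MM1S, and rho was -0.48 in both lines. These are descriptions over genes that share the same arrays, and length goes with other properties of genes that were not examined. The length of the transcribed unit, not of the messenger RNA, was used.

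**Figure D4:**
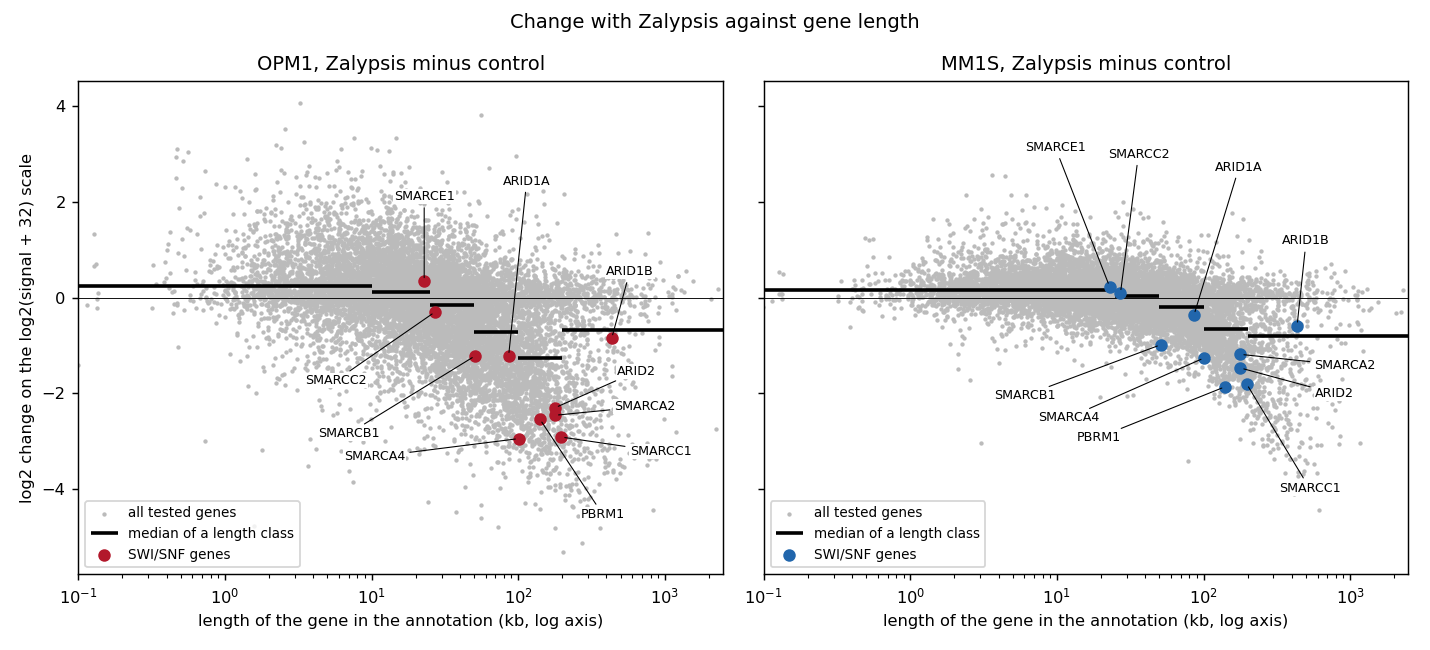
Log2 change with Zalypsis against the annotated length of each tested gene (kb, log axis) in OPM1 and in MM1S, with the medians of 6 length classes as black bars. The 10 SWI/SNF genes are coloured; SMARCC1, ARID2, SMARCA2, PBRM1 and SMARCA4 lie below the median of the class of 100 to 200 kb in both panels.

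Of 19 other subunits of the complexes, 17 were tested. In OPM1 6 of them fell and 3 rose, with a median of -0.20, and in MM1S 3 fell and 3 rose, with a median of -0.05. Of all tested genes 38.5% fell in OPM1 and 21.1% in MM1S, and these counts lie near those shares. In OPM1 the median was 0.06 with quantile normalization, where 5 fell and 6 rose, and -1.10 with the poly-A scaling, where 16 of 18 fell and 0 rose. Their median length was 29.1 kb. BICRAL, a subunit of the GBAF form, fell most by the fit (log2 -1.97 in OPM1 and -1.43 in MM1S). Its signals were 16.02 and 13.2 on the OPM1 Zalypsis arrays, against 161 and 142 on the OPM1 controls, at least 5.55-fold lower. BCL7C, a small BAF subunit, rose in both lines (log2 1.10 in OPM1 and 0.89 in MM1S). It had 169.7 and 144 on the OPM1 Zalypsis arrays, against 41.0 and 73.5 on the OPM1 controls.

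In OPM1 BRD7, a bromodomain subunit of PBAF, fell by 1.13 and BCL7A by 0.81. In MM1S DPF2, a subunit that reads histone marks, rose by 0.51 and DPF3, its relative, fell by 0.40, and the DPF2 rise was not called with the hybridisation (0.19, adjusted p = 0.526) or poly-A scaling (0.26, adjusted p = 0.537). The response differed between the lines for 5 of the 17, with 4 lower in OPM1, beside 31.2% of all tested genes, led by SS18L1 (-0.86), BCL7A (-0.79) and BRD7 (-0.73). With quantile normalization the BCL7A and BRD7 differences were not called (adjusted p = 0.0660 and 0.0505), nor was that of BRD7 with the hybridisation scaling (adjusted p = 0.198). SS18L1 fell in OPM1 (log2 -0.47) and rose in MM1S (log2 0.39), but its fall was not called with quantile normalization (-0.12, adjusted p = 0.388) nor its rise with the hybridisation (0.10, adjusted p = 0.729) or poly-A scaling (0.17, adjusted p = 0.591). Untreated OPM1 had 4 of the 17 higher and 5 lower than untreated MM1S, beside 28.6% and 35.2% of all tested genes. BCL7A (log2 2.72) and SMARCD3 (2.25), a variant of the SMARCD subunit, were higher and BCL7C (-1.38) lower, but with the poly-A scaling BCL7A stood at -0.69 and SMARCD3 at -0.33. In MM1S both were under the floor, so BCL7A was at least 9.12-fold and SMARCD3 at least 6.93-fold higher in untreated OPM1.

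The counts in other chromatin complexes stand beside 38.5% of all tested genes that fell in OPM1 and 21.1% in MM1S. Of 10 tested ISWI genes, 7 fell and 1 rose in OPM1 (median -1.44), and 4 fell and 1 rose in MM1S (median -0.25). BAZ1A (log2 -2.33) and BAZ1B (-1.97) led the falls in OPM1 and BAZ2B (-1.60) and BAZ1B (-0.77) those in MM1S, while POLE3 rose in OPM1 (1.12) and BAZ2A in MM1S (0.42). The BAZ2A rise was not called with the hybridisation (0.099, adjusted p = 0.759) or poly-A scaling (0.16, adjusted p = 0.705). Of 18 CHD and NuRD genes, 15 fell in OPM1 (median -1.23) and 10 in MM1S (median -0.55), and 0 rose in either. MTA3 (-3.27) and CHD7 (-2.83) fell most in OPM1, and CHD9 (-1.73) and GATAD2A (-1.40) in MM1S. MTA3 was under the floor in treated OPM1 and at least 16.3-fold lower.

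Of 18 genes of INO80, SRCAP and p400, 12 fell and 2 rose in OPM1 (median -0.67), and 7 fell and 0 rose in MM1S (median -0.31). The scaffold gene TRRAP (-3.005) and the ATPase gene INO80 (-2.29) fell in OPM1, INO80 at least 8.99-fold to a mean under the floor, and both fell in MM1S (-1.62 and -1.96), while DMAP1 (1.46) and ZNHIT1 (1.41) rose in OPM1. In polycomb repressive complex 2, which methylates histone H3, 8 of 9 genes fell and 1 rose in OPM1 (median -1.72), and 4 fell and 1 rose in MM1S (median -0.33). AEBP2 (-3.25) and JARID2 (-2.60) fell most in OPM1 and JARID2 (-2.38) and AEBP2 (-0.79) in MM1S, while PHF1 rose in both (0.81 and 0.94). In MM1S the median of the 10 SWI/SNF genes, -1.08, was the lowest of these 6 lists, and in OPM1 it was close to that of polycomb complex 2. The 10 genes also had the longest median length, 121 kb. It was 102 kb for ISWI, 72.0 kb for CHD and NuRD and 59.8 kb for polycomb complex 2. For the other SWI/SNF subunits it was 29.1 kb, and for INO80, SRCAP and p400 23.8 kb. The part of length in these medians was not tested. The rises named in OPM1 turned negative with the poly-A scaling, at -0.15 for BCL7C, -0.78 for POLE3, -0.16 for DMAP1, -0.39 for ZNHIT1 and -0.78 for PHF1. No test compared the lists.

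**Figure D5:**
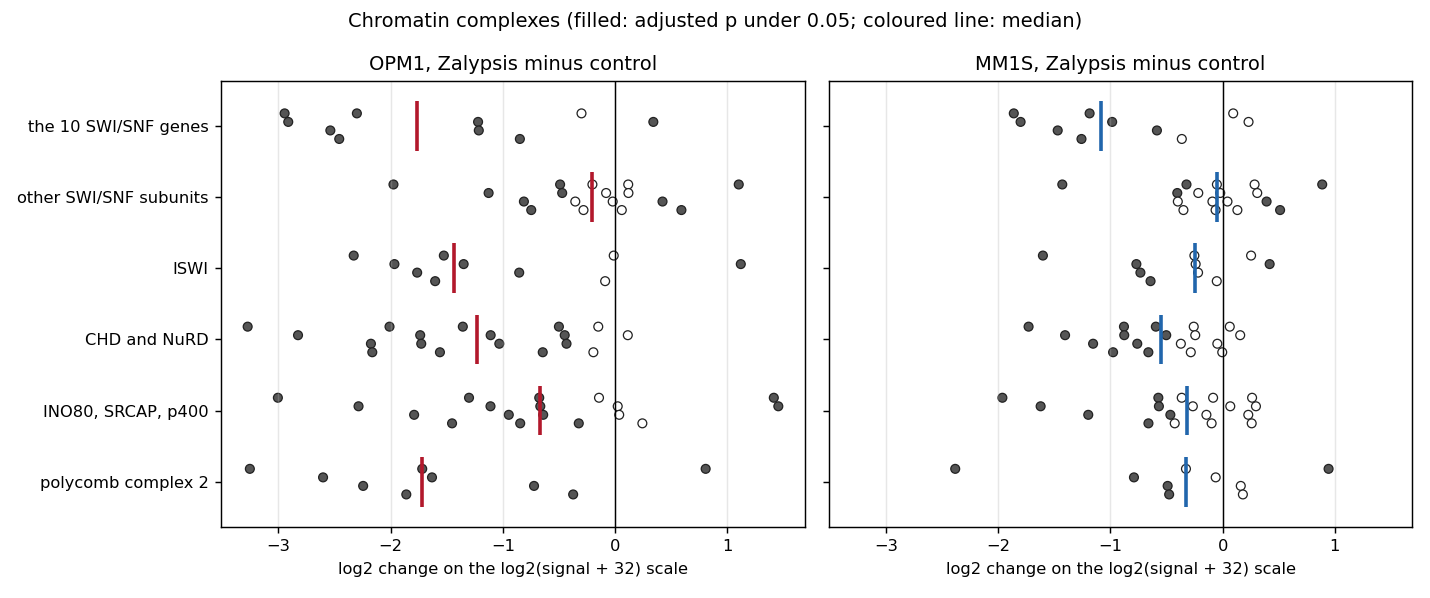
Log2 change with Zalypsis of each tested gene of 6 lists of chromatin complexes in OPM1 and in MM1S, with the median of each list as a coloured line. Filled points passed the test. The median of the 10 SWI/SNF genes lies at -1.76 in OPM1 and -1.08 in MM1S, and that of the other SWI/SNF subunits at -0.20 and -0.05.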

How the data were processed

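Each of 54675 probe sets has 1 deposited intensity per array, on a linear scale, from the authors' dChip analysis per the series' design text. Its version and normalization are not given in the sources, and the sources differ on the labelling kit. Per the labels' protocols 100 ng of RNA was amplified in a 2-cycle synthesis. Arrays have no read depth, and their number limits the precision.

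Values were kept as deposited and turned into log2(value + 32). Of the probe sets, 62 were controls, 41091 had 1 symbol, 1801 several and 11721 none in the platform annotation, and those with 1 symbol were used, 41037 of them matched to RefSeq GRCh38.p14. The probe set with the highest mean log2 value stood for a gene. The 40% dimmest of 19775 genes, below a signal of 27.3, were left out. The 4 groups entered 1 fit in limma 3.58.1 under R 4.3.3, with lmFit, contrasts and eBayes with a trend. A gene had 4 residual and 17.0 prior degrees of freedom. The prior is drawn from all tested genes, so the p-values rest largely on spread shared between genes. Benjamini-Hochberg adjustment ran over all 11865 tested genes of a contrast. Errors of log2 changes are standard errors. The steps were tested on simulated data.

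The 10 genes, the lists and the tests were chosen with earlier results of these data known. All 10 are named whatever their values. Of the other SWI/SNF subunits the 4 called genes with the largest change with Zalypsis in each line are named, and 3 in the other comparisons. Of each other list the 1 or 2 largest each way are named, and for each ATPase the 3 most similar profiles. Single probe sets were named where they disagreed, after their values were seen. Replicate numbers do not pair the arrays by the labels: the deviations of same-numbered arrays from their group means correlated at 0.21 within each line and at -0.12 to -0.01 across lines. Alternatives were other scalings, pseudocounts, filters, probe set rules, a replicate block, fits within a line and leaving out each array.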

Additional observations from a re-analysis of the deposited data

Results flagged for a closer look

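For 6 genes the change with Zalypsis differed between the lines by a test of the difference itself (limma, OPM1 minus MM1S, 2 arrays a group). On the log2 scale the difference was -1.27 for SMARCA2, -1.69 for SMARCA4, -0.86 for ARID1A, -0.83 for ARID2, -0.68 for PBRM1 and -1.11 for SMARCC1. The fitted change was negative in both lines for all 6, with the larger fall in OPM1. The change of ARID1A in MM1S was not called by its brightest probe set. The poly-A control signal and the 75th percentile of the signal differ between the lines' treated arrays, and their part in these differences was not tested.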

How the results depend on the processing

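Of the counts of called genes and probe sets, 136 stayed within 1.5 times the value given under an alternative and 7 did not. In the comparison of responses, 3 of the 10 genes were called with scaling by the hybridisation controls (10 probe sets), 3 as the mean of a gene's probe sets and 3 without probe sets of the _s_at or _x_at kind. The last setting left 6 of the 10 genes to test, of which 4 were called in MM1S. With the poly-A scaling all 10 genes and 43 probe sets differed between the untreated lines. Leaving out 1 array gave 8 to 9 called genes in OPM1, 7 to 8 in MM1S, 5 to 6 for the difference and 5 to 6 for the untreated lines, and 34 to 36, 27 to 30, 13 to 17 and 19 to 24 probe sets. With a replicate block the genes called were 9, 7, 6 and 6 and the probe sets 36, 30, 19 and 27, and of the single genes' calls it changed 1, SMARCA4 between the untreated lines (adjusted p = 0.0237). Among the values of single genes 703 kept direction and side of the threshold, 16 lost and 20 gained a call, and 31 turned sign. The cause of these shifts was not tested, except that leaving out arrays or probe sets leaves less to test.

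Of the values that turned sign, most belong to genes that were not called. With quantile normalization SMARCC2 stood at 0.033 in OPM1 and 0.13 between the untreated lines. With the poly-A scaling SMARCE1 stood at -1.43 in OPM1 and -0.047 in MM1S, and SMARCC2 at -0.18 in MM1S. The differences between the responses were then 0.19 for ARID1B, 0.18 for ARID2, 0.32 for PBRM1 and -1.38 for SMARCE1, and the untreated lines differed by -3.72 for SMARCA4, -3.07 for ARID1B, and -3.81 for both SMARCB1 and SMARCE1. Scaled by the hybridisation controls, SMARCC2 was at -0.23 and SMARCE1 at -0.10 in MM1S, and SMARCB1 at -0.14 between the untreated lines. As the mean of all probe sets SMARCE1 was at -0.22 in OPM1, and the differences were 0.083 for ARID1B, 0.038 for PBRM1, 0.016 for SMARCB1 and -0.24 for SMARCE1. Without the _s_at and _x_at sets SMARCC2 was at -0.016 in MM1S and the PBRM1 difference at 0.40. With the plain mean as the rule for the brightest set, which was chosen after seeing the data, the ARID1B difference was 0.027. Leaving out single arrays moved SMARCC2 in MM1S between -0.078 (without MM1S control 2) and 0.27, and between the untreated lines between -0.19 and 0.16 (without MM1S control 1). It moved SMARCB1 between the untreated lines between -0.15 (without OPM1 control 2) and 0.22, and the SMARCE1 difference between -0.013 (without OPM1 control 1) and 0.23.

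Lower genes made up 60.3% of all calls in OPM1, 45.4% with quantile normalization, 99.6% with the poly-A and 67.0% with the hybridisation scaling. In MM1S the shares were 56.2%, 45.4%, 83.5% and 87.9%, for the difference 67.0%, 52.4%, 89.5% and 52.7%, and for the untreated lines 55.2%, 48.4%, 99.5% and 66.2%. The poly-A scaling moved the median of all genes to -0.88 in OPM1, -0.25 in MM1S, -0.69 for the difference and -3.59 for the untreated lines, and the hybridisation scaling moved it to -0.23 in MM1S and -0.20 between the untreated lines. The median of the 10 genes was -1.84 and -1.45 with the poly-A scaling and -1.83 and -1.40 with the hybridisation scaling in OPM1 and MM1S. On the MM1S arrays the poly-A signal is about the median signal of an array, which limits that scaling. Signals near 20 limit what can be measured of ARID2 and PBRM1 in treated OPM1.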
